A study of Mus musculus with 16 samples.

Results

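Nuclear-encoded subunits of the respiratory chain and the ATP synthase were followed across all libraries of the study. They were chosen by symbol alone: Nduf followed by a, b, c, s or v and a digit, Sdha to Sdhd, Uqcr, Cyc1, Cox4 to Cox8 and Atp5, with symbols ending in -ps left out. The rule found 89 of the 37620 genes, of which 85 are annotated as protein-coding (37 for complex I, 4 for complex II, 9 for complex III, 18 for complex IV and 17 for complex V). The other 4, Ndufa11b, Ndufb4c, Ndufs6b and Cox6c2, are annotated as processed pseudogenes and are described apart from the complexes. A few of the 85 are not subunits in the strict sense: Cox7a2l is a supercomplex assembly factor, Atp5s is a coupling factor related to the ATP synthase, and Ndufa4, named for complex I, is now counted with complex IV.

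RNA came from the proximal jejunum, the upper part of the absorptive small intestine, of male CBA/J mice that were 8 weeks old. Mice were fed a diet adequate in methionine or one supplemented with methionine at 300%, and were either irradiated with gamma rays at 8.5 Gy or left at 0 Gy. This gave 4 groups of 4 libraries. The design text names a period of 6 days, and the labels name no transgene or deletion. Ribosomal RNA was removed from total RNA, and libraries were made with a small RNA kit after fragmentation. The labels do not tie libraries to individual animals, so p-values measure the spread between libraries.

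The respiratory chain passes electrons from NADH (complex I) and succinate (complex II) through ubiquinone to complex III, then through cytochrome c to complex IV, which reduces oxygen, and complex V uses the resulting proton gradient to make ATP. Complexes I, III, IV and V are built from both nuclear and mitochondrially encoded subunits, whereas complex II is wholly nuclear. In the intestine, absorptive enterocytes are rich in mitochondria, and crypt cells are known to change their reliance on respiration as they differentiate.

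The files held estimated counts for 2.57 to 15.51 M fragments per library. The members took 1.228 to 1.382% of counts in unirradiated libraries and 0.777 to 1.036% in irradiated ones. Small nucleolar RNAs took 2.929 to 5.047% of counts without irradiation and 7.184 to 14.121% with it, a difference between groups that shares of all counts carry with them. Levels within a gene are therefore given as CPM, counts relative to library size after TMM scaling of the libraries, which sets aside a minority of genes that differ strongly. Levels between genes are given as TPM, which divides by transcript length, as the mean over the 8 unirradiated libraries unless said otherwise. A gene was called higher or lower when edgeR's quasi-likelihood test gave an adjusted p under 0.05 over the 16558 genes tested, and log2 fold changes come from that fit with their standard errors (SE).

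Of the members, 84 passed the filter on low counts and were tested. The other 5, Ndufa4l2, Cox6a2, Cox7b2, Cox8b and Cox8c, are isoforms with restricted expression, known from striated muscle for Cox6a2 and Cox8b, from testis for Cox7b2 and Cox8c, and from hypoxic cells for Ndufa4l2. Cox7b2 and Cox8c were listed at a mean TPM of 0 without irradiation, Cox8b at 0.0988, Ndufa4l2 at 0.323 and Cox6a2 at 0.445. Their widely expressed counterparts lay far above this, with Cox6a1 at 237 TPM, Cox7b at 117, Ndufa4 at 98.0 and Cox8a at 88.0. Because the filter keeps a gene that is high enough in 1 group alone, counts below are of the members tested and not of all members.

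Levels spread widely within a complex. In complex V the catalytic Atp5b (F1 beta) stood at 455 TPM and Atp5a1 (F1 alpha) at 294, while the lowest, Atp5s, stood at 0.871. Complex I ran from Ndufa4 at 98.0 and Ndufb10 at 85.8 down to Ndufb4 at 3.04 and Ndufa4l2 at 0.323. Complex II was the most even, with Sdhc at 101, Sdhb at 89.2, Sdhd at 75.6 and Sdha at 74.9. Complex III ran from Uqcrc2 at 116 to Uqcrb at 57.2, and complex IV from Cox6a1 at 237 to Cox7b2 at 0. These levels are per transcript length, and a low value for Ndufb4 stands beside a copy that took most of the pair's reads, as given further on.

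After irradiation, transcripts of the members were lower on both diets. Each irradiated library but 1 had a smaller summed CPM over the 89 members than any unirradiated library. On the adequate diet the sums were 12123, 11797, 12063 and 11229 CPM without irradiation and 8382, 9494, 9384 and 9273 CPM after 8.5 Gy. With supplementation they were 11852, 12035, 12700 and 12488 CPM without irradiation and 8547, 8931, 9594 and 11824 CPM after 8.5 Gy. The groups did not overlap on either diet, but the last of these libraries, replicate 4 of the supplemented irradiated group, came close to its controls and above 2 of the adequate ones.

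The same replicate 4 stood apart in markers of absorptive enterocytes. The summed CPM of the 10 enterocyte markers was 53500 in it and 12900, 24200 and 24300 in the other libraries of its group. In the adequate irradiated group the sums were 26100, 42100, 35300 and 15300 CPM, against 29100 to 35700 without irradiation. The 10 enterocyte markers did not move together after irradiation. On the adequate diet 6 were negative and 4 positive, with 1 called higher. On the supplemented diet 4 were negative and 6 positive, with none called. Sums over the 5 Paneth cell markers were 6890 to 13200 CPM in irradiated libraries and 2160 to 4730 in unirradiated ones. The 4 stem cell markers summed to 228 to 351 CPM without irradiation and 381 to 901 CPM with it, and 2 of them were called higher on each diet. The 6 goblet cell markers summed to 8690 to 10600 CPM without irradiation and 11400 to 18600 CPM with it, and 1 was called higher on the adequate and 2 on the supplemented diet.

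Blood and lymphoid markers were lower after irradiation. The 5 red blood cell markers summed to 120 to 591 CPM in unirradiated libraries and 3.28 to 28.0 CPM in irradiated ones, with 5 of 5 called lower on both diets and Hbb-bt at 0 in the adequate irradiated group. The 5 B and plasma cell markers summed to 180 to 448 CPM and 69.7 to 167 CPM, with 4 and 2 of the 4 tested called lower. The 6 markers of proliferating crypt cells, at 361 to 490 CPM and 331 to 736 CPM, gave no call (0 and 1 at an unadjusted p under 0.05). The part of these markers in the members' values was not tested, and in whole tissue fewer cells of a type and less RNA per cell cannot be told apart.

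Counted on nuclear protein-coding transcripts alone, the members' share was 3.92 to 4.08% of TPM in the adequate unirradiated libraries and 2.82 to 3.26% after irradiation. On the supplemented diet it was 3.90 to 4.18% and 2.89 to 3.17%. On this scale replicate 4 of the supplemented irradiated group, at 3.17%, lay close to the rest of its group. The mean share of complex II went from 0.234% ± 0.00316 (SD, n = 4) to 0.156% ± 0.0134 on the adequate diet and from 0.251% ± 0.0126 to 0.165% ± 0.00704 on the supplemented diet. The mean share of complex V went from 1.37% ± 0.0126 to 0.973% ± 0.0652 with the adequate diet and from 1.36% ± 0.0411 to 0.991% ± 0.0570 with supplementation. All 5 complexes were lower in every irradiated library than in every unirradiated one on this scale.

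**Figure D1:**
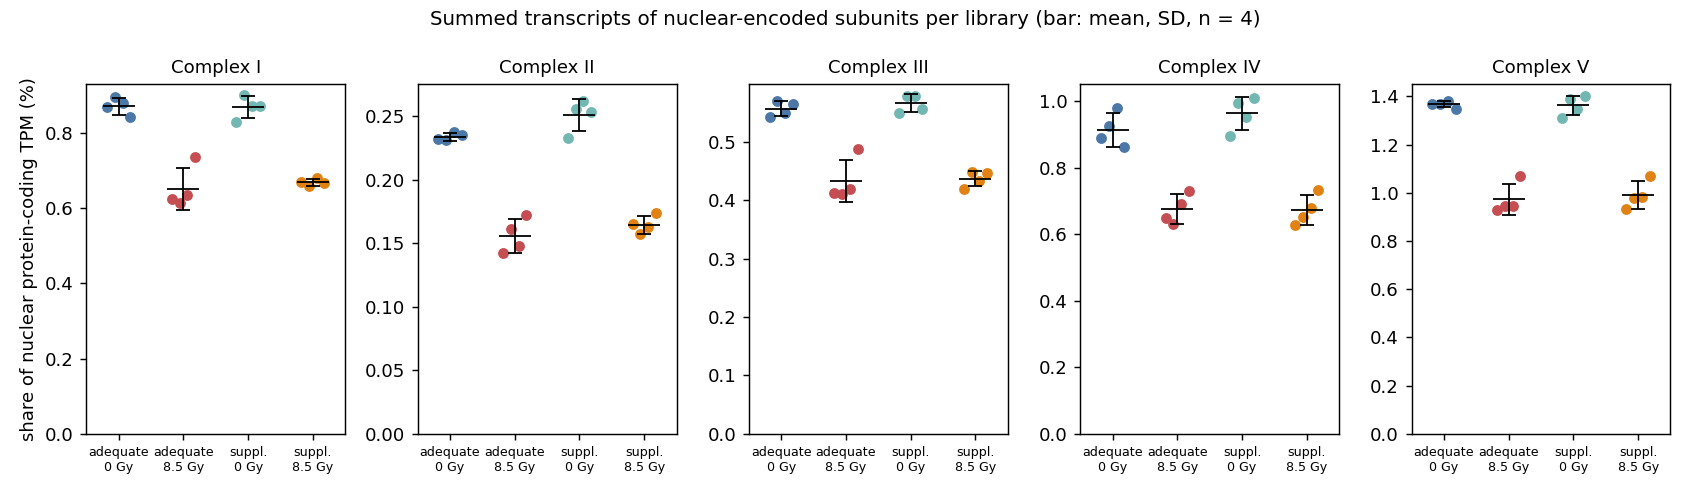
Summed TPM of the protein-coding subunits of each complex as a percentage of nuclear protein-coding TPM, by diet and dose, with 1 point per library and the mean and SD of 4 libraries. In each panel the irradiated libraries lie below all unirradiated ones, for complex II at 0.142 to 0.174% against 0.231 to 0.262%.

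By the test, 35 of the 84 tested members were lower and 2 were higher after irradiation on the adequate diet, where 6.58% of all tested genes were lower and 7.13% were higher. With supplementation 31 were lower and 2 were higher, against 7.21% and 8.03% of all tested genes. One of the latter, the pseudogene copy Ndufs6b, passed the filter on low counts only through the group in which it was high, so its call supports nothing. The median log2 fold change of the members was -0.32 on the adequate and -0.31 on the supplemented diet, and that of all genes was 0.01 on both. With no test, the irradiated libraries were all below the unirradiated ones for 41 members on the adequate diet (background 10.1%) and for 35 on the supplemented diet (background 9.23%). They were all above for 1 member (background 9.34%) and for 2 members (background 9.43%).

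The number called depended on the libraries. On the adequate diet it was 19 lower without replicate 1 of the irradiated group, 22 without replicate 3 and 23 without replicate 1 of the unirradiated group, 20 without the 3 libraries under 4 M counts and 22 with no filter on low counts. On the supplemented diet it was 15 lower without replicate 2 of the irradiated group, 18 without the 3 small libraries and 20 when the adequate libraries were left out of the fit. Without replicate 4 of the supplemented irradiated group it was 43. For the members named below, a call is said to be lost where any of 24 alternatives, 8 other settings of the fit or scaling and 16 fits that each leave out a library, gave an adjusted p of 0.05 or more.

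The 2 radiation comparisons share no library, and their calls are set side by side. Both come from the same fit with a shared estimate of the spread, so the 2 lists of calls are not independent. Of the members called lower, 26 were called on both diets, which is 74.3% of the 35 on the adequate diet and 83.9% of the 31 on the supplemented diet. The sign was negative on both diets for 66 of the 84 members, positive on both for 8 and opposite for 10. Between diets the Pearson correlation of the log2 fold changes of the 84, pseudogene copies included, was 0.25. That set holds Ndufs6b, at -0.91 on the adequate and 3.55 on the supplemented diet, where no protein-coding member exceeded 0.58. A correlation without Ndufs6b was not computed, so 0.25 says little about the protein-coding members. The shared calls, the signs and this correlation were not computed over all tested genes, so none is shown to be particular to the members. Cox7a2l was higher on both diets. No member passed the test of the interaction, that is of a difference in radiation response between the diets (0 of 84, background 0.0% in both directions, 7 at an unadjusted p under 0.05, and 0 by DESeq2 and by limma voom). A call on 1 diet alone is thus not shown to differ from the other diet.

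**Figure D2:**
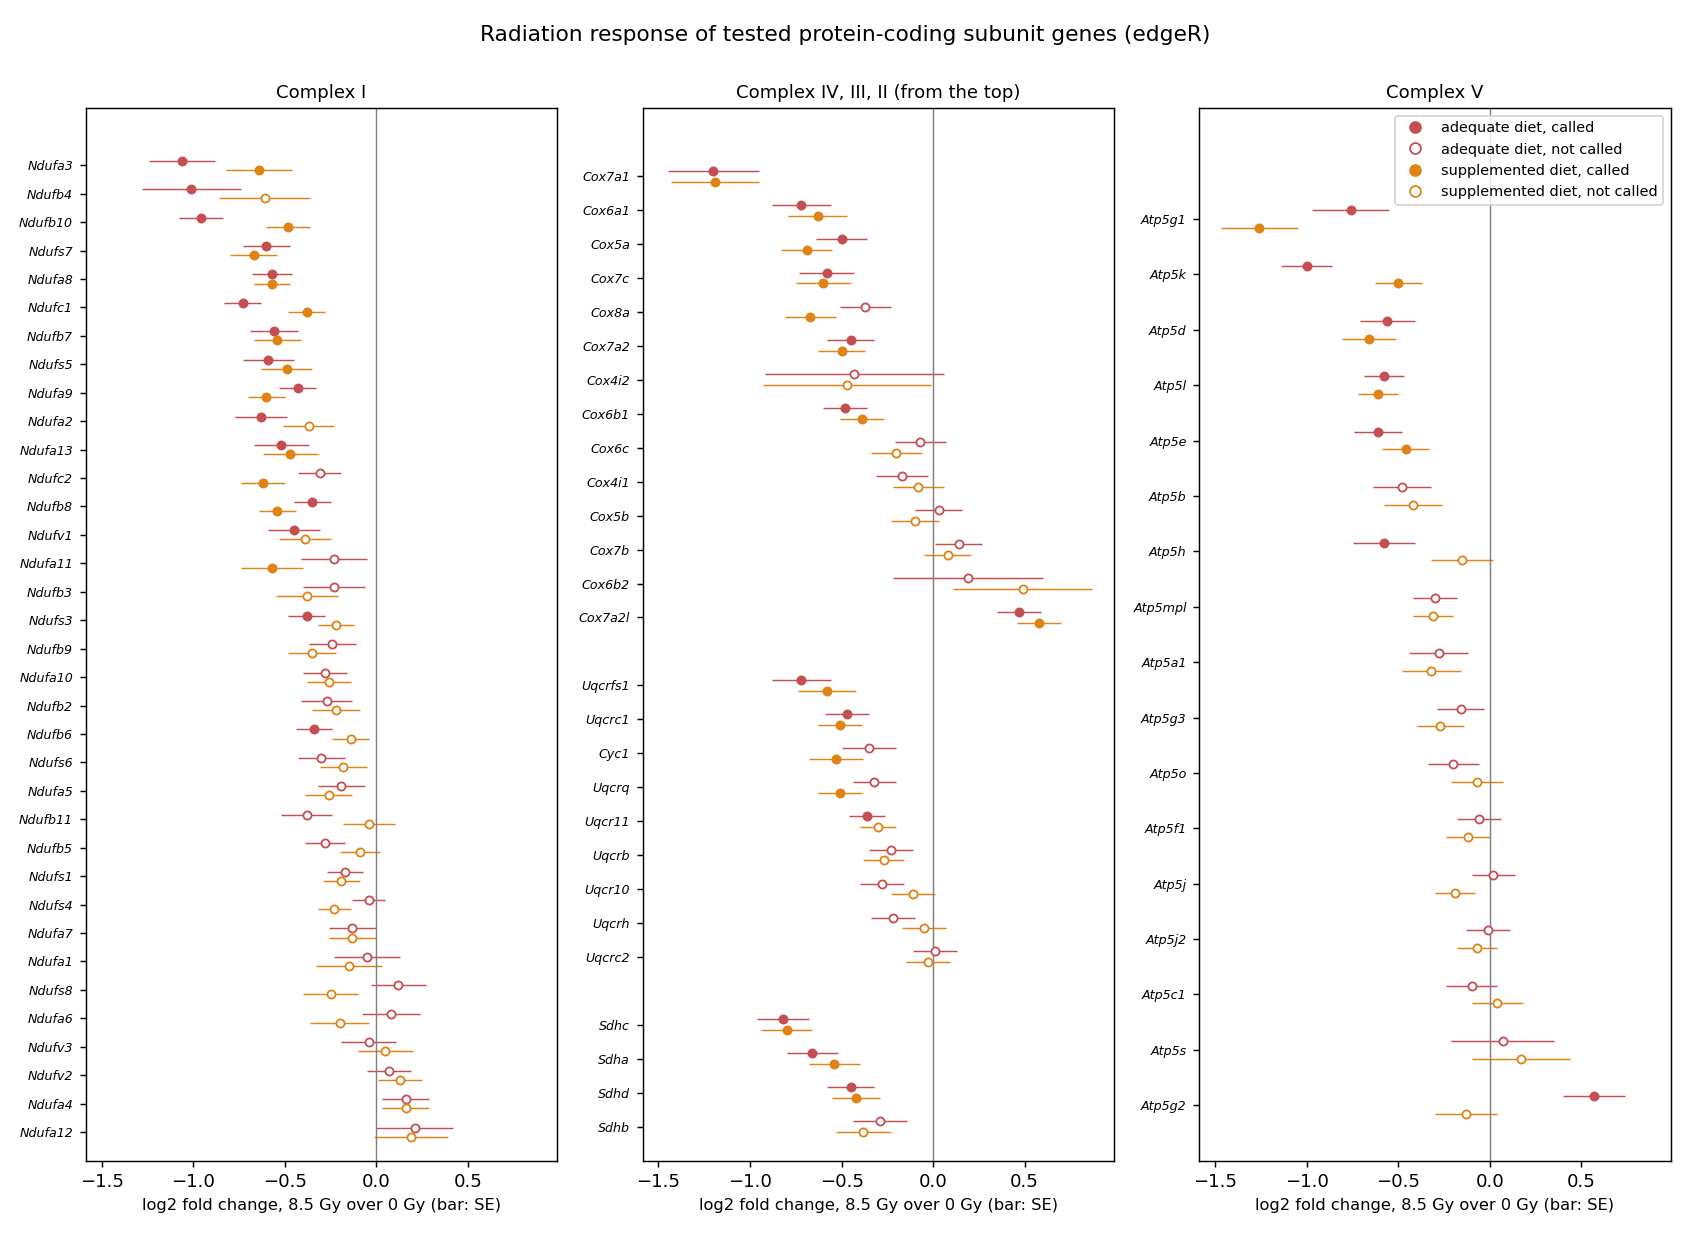
Log2 fold change with its SE of 79 of the 80 tested protein-coding members after irradiation, by complex, on the adequate (red) and supplemented (orange) diet, with filled points for calls. Most points lie left of 0, the farthest at -1.26 for Atp5g1 on the supplemented diet, and Cox7a2l at 0.47 and 0.58 is the only gene called higher on both diets.

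Complex I oxidises NADH at a flavin held by Ndufv1 and passes the electrons along iron-sulfur clusters in several Ndufs and Ndufv subunits. Most Ndufa, Ndufb and Ndufc subunits are accessory and surround this core. Of its 36 tested protein-coding members, 16 were lower on the adequate diet and 12 on the supplemented diet, and none was higher on either (21 and 20 members had an unadjusted p under 0.05). The median log2 fold changes were -0.30 and -0.26. Among the 11 Ndufs and Ndufv genes, 5 were lower on the adequate and 2 on the supplemented diet. Among the 25 Ndufa, Ndufb and Ndufc genes, 11 and 10 were lower. This split follows the symbols and not the role. Ndufs5, for one, is an accessory gene and was called lower on both diets.

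Ndufb10, an accessory subunit of the membrane arm, had the smallest p of all members on the adequate diet. Its level was 178, 188, 155 and 154 CPM in the unirradiated libraries and 76.0, 88.0, 94.4 and 88.6 CPM in the irradiated ones. It fell by 0.96 on the log2 scale (SE 0.12, adjusted p = 0.000133). Supplemented mice had 158, 143, 145 and 144 CPM before and 93.3, 94.3, 108 and 126 CPM after irradiation. The groups did not overlap on either diet, and there it fell by 0.48 (SE 0.12, adjusted p = 0.0130). That second call was lost without the small libraries and without replicate 2 of the irradiated group (adjusted p up to 0.0542).

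Ndufa8, an accessory subunit with paired cysteine motifs that faces the intermembrane space, gave nearly the same response on both diets. It was 72.1, 78.4, 81.3 and 82.7 CPM on the adequate diet and 43.1, 52.3, 57.3 and 59.1 CPM after irradiation. It was 84.0, 85.5, 81.6 and 78.6 CPM on the supplemented diet and 57.8, 51, 54.8 and 58.6 CPM after irradiation. No irradiated library reached an unirradiated one. The log2 fold change was -0.57 on both diets (SE 0.11 and 0.10, adjusted p = 0.00237 and 0.00185), and both calls held under every alternative tried. Ndufs7, which carries the last iron-sulfur cluster before ubiquinone, also held under all of them, with log2 fold changes of -0.60 and -0.67 (SE 0.13 for both, adjusted p = 0.00661 and 0.00249).

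Several other accessory genes were called on both diets. Ndufa3 fell by 1.06 and by 0.64 on the log2 scale (SE 0.18 for both), with libraries that overlapped on the supplemented diet. Ndufc1 fell by 0.73 and by 0.38, Ndufa9, which lies near the ubiquinone site, by 0.43 and by 0.60, and Ndufb8, a membrane arm subunit, by 0.35 and by 0.54 (SE 0.10 for each). Ndufs5, Ndufb7 and Ndufa13 were also lower on both. The Ndufa13 calls, at -0.52 and -0.47 (SE 0.15, adjusted p = 0.0297 and 0.0415, with overlapping libraries on the supplemented diet), were lost in 9 and 14 of 24 alternatives (up to 0.0983 and 0.140), on the adequate diet without any 1 library of its groups but replicate 4 of the irradiated one, and on the supplemented diet among others without replicate 2, 3 or 4 of the unirradiated or 1, 2 or 3 of the irradiated group and without some adequate libraries. With supplementation Ndufa3 lost the call in 5 of 24 alternatives, among them those without replicate 4 of the unirradiated group or replicate 1, 2 or 3 of the irradiated group (adjusted p up to 0.0813), Ndufs5 in 8 (up to 0.0798) and Ndufc1 in 3 (up to 0.0649, without replicate 2 of the irradiated group among them). On the adequate diet Ndufb8 lost it in 8 (up to 0.128) and Ndufa9 in 2 (up to 0.0570, without replicate 1 of the irradiated group among them).

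Some core genes were called on 1 diet or on none. Ndufv1, the flavin and NADH binding subunit, was lower on the adequate diet at -0.45 (adjusted p = 0.0393). That call was lost in 11 of 24 alternatives (adjusted p up to 0.114). Among them were those without any 1 of replicates 1, 2 and 3 of the unirradiated or 1, 2 and 4 of the irradiated group. On the supplemented diet Ndufv1 was -0.39 and not called (adjusted p = 0.0667 by edgeR). There DESeq2 gave adjusted p = 0.0447 and limma voom 0.0433. Without replicate 4 of the supplemented irradiated group it was -0.56 (adjusted p = 0.00221). Ndufs1, the largest iron-sulfur subunit, gave -0.17 and -0.19 (SE 0.10, adjusted p = 0.302 and 0.216) with overlapping libraries. Ndufa4, which is not of this core and is now counted with complex IV, gave 0.16 on both diets (SE 0.13, adjusted p = 0.441 and 0.448).

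Complex II oxidises succinate and is also an enzyme of the tricarboxylic acid cycle. Of its 4 genes, 3 were lower on both diets, with complex medians of -0.55 and -0.48. Sdhc, a membrane anchor, was 196, 177, 183 and 174 CPM on the adequate diet and 86.0, 112, 109 and 107 CPM after irradiation. In the supplemented groups it was 179, 195, 211 and 216 CPM and then 103, 103, 105 and 149 CPM. It fell by 0.82 and by 0.80 (SE 0.14 for both, adjusted p = 0.00104 and 0.00111), without overlap, and kept both calls under every alternative.

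Sdha, the flavoprotein, was 609, 583, 542 and 509 CPM on the adequate diet and 328, 358, 358 and 379 CPM after irradiation. It was 539, 578, 550 and 573 CPM on the supplemented diet and 327, 349, 376 and 494 CPM after irradiation. It fell by 0.66 and by 0.54 (SE 0.14, adjusted p = 0.00659 and 0.0183). Sdhd, the other anchor, fell by 0.45 and by 0.42 (SE 0.13, adjusted p = 0.0270 and 0.0343). The Sdha call with supplementation was lost in 4 of 24 alternatives, without the small libraries, without replicate 2 or 3 of the irradiated group, and with the groups compared alone (adjusted p up to 0.0729). The Sdhd calls were lost in 6 and 10 alternatives (up to 0.0920 and 0.103), on the supplemented diet without any 1 library of its groups but replicate 4 of the irradiated one, and on the adequate diet without replicate 1, 3 or 4 of the unirradiated or 1 or 3 of the irradiated group. Sdhb, the iron-sulfur subunit, was -0.29 and -0.38 (SE 0.15, adjusted p = 0.225 and 0.0999) with overlapping libraries. Without replicate 4 of the supplemented irradiated group the latter was -0.54 (adjusted p = 0.00819).

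Complex III moves electrons from ubiquinol to cytochrome c. Of its 9 genes, 3 were lower on the adequate and 4 on the supplemented diet, with medians of -0.32 and -0.30, and none was higher on either (6 genes had an unadjusted p under 0.05 on each diet). Uqcrfs1, the Rieske iron-sulfur protein, was 265, 242, 275 and 227 CPM on the adequate diet and 139, 160, 161 and 155 CPM after irradiation. The supplemented groups had 237, 238, 233 and 273 CPM and then 122, 140, 171 and 224 CPM. It fell by 0.72 and by 0.58 (SE 0.16, adjusted p = 0.00708 and 0.0206) without overlap. The second call was lost in 5 alternatives, among them those without the small libraries and without replicate 4 of the unirradiated group or replicate 1 or 2 of the irradiated group (adjusted p up to 0.0802).

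The core proteins of complex III differed from each other. Uqcrc1 fell by 0.47 and by 0.51 (SE 0.12, adjusted p = 0.0191 and 0.0110), calls lost in 4 alternatives (up to 0.0795, without replicate 3 of the unirradiated or 1 of the irradiated group among them) and in 1. Uqcrc2, its partner, gave 0.01 and -0.03 (SE 0.12, adjusted p = 0.981 and 0.920), at 192, 221, 203 and 212 CPM on the adequate diet and 187, 235, 207 and 204 CPM after irradiation. Cyc1, the cytochrome c1 heme protein, was lower on the supplemented diet at -0.53 (SE 0.15, adjusted p = 0.0221), a call lost in 9 alternatives (up to 0.0757, in all but 2 of those that leave out a library of its groups), and -0.35 on the adequate diet (adjusted p = 0.124).

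Complex IV has a core encoded in mitochondria and a shell of nuclear subunits, several of which exist as isoforms known for particular tissues. Of its 14 tested protein-coding members, 6 were lower and 1 higher on the adequate diet, and 7 were lower and 1 higher on the supplemented diet. The medians were -0.40 and -0.43. Cox4i1, the widely expressed regulatory subunit, was 328, 303, 337 and 269 CPM on the adequate diet and 259, 302, 305 and 232 CPM after irradiation. Its log2 fold changes were -0.17 and -0.08 (SE 0.14, adjusted p = 0.466 and 0.755), and the libraries overlapped on both diets. Cox5b gave 0.03 and -0.10 (SE 0.13, adjusted p = 0.901 and 0.636).

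Other subunits of the shell were lower. Cox6a1, the widely expressed isoform and the member of highest level in complex IV, was 369, 321, 350 and 325 CPM on the adequate diet and 167, 226, 233 and 205 CPM after irradiation, a fall of 0.72 on the log2 scale (SE 0.16, adjusted p = 0.00885). With supplementation it was 315, 309, 372 and 345 CPM and then 173, 185, 210 and 296 CPM, and fell by 0.63 (SE 0.16, adjusted p = 0.0159). Cox5a, a matrix-side subunit, fell by 0.50 and by 0.69 (SE 0.14, adjusted p = 0.0308 and 0.00440). The Cox6a1 call on the supplemented diet was lost in 3 alternatives, among them those without the small libraries and without replicate 2 of the irradiated group, at an adjusted p up to 0.0642. The Cox5a call on the adequate diet was lost in 8 (up to 0.0971), without replicate 1, 2 or 3 of either group among them. Cox8a was lower on the supplemented diet at -0.67 (adjusted p = 0.00435) and gave -0.37 on the adequate diet (adjusted p = 0.0870).

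The Cox7a family held both the farthest fall and the shared rise within complex IV. Cox7a1 is the isoform known from heart, skeletal muscle and brown fat, Cox7a2 is the widely expressed isoform, and Cox7a2l joins complexes III and IV in supercomplexes. Cox7a1 was 33.4, 36.5, 52.4 and 36.3 CPM on the adequate diet and 11.5, 15.4, 18.8 and 22.7 CPM after irradiation. Supplemented mice had 46.5, 49.7, 44.2 and 54.0 CPM and then 15.3, 14.4, 20.9 and 33.4 CPM. It fell by 1.20 and by 1.19 (SE 0.25 and 0.24, adjusted p = 0.00554 and 0.00415) without overlap, and kept both calls under every alternative.

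Cox7a2 fell by 0.45 and by 0.50 (SE 0.13, adjusted p = 0.0268 and 0.0131), calls that were lost in 7 and 3 of 24 alternatives (up to 0.0942 and 0.0585), the former without replicate 1, 2 or 3 of the unirradiated or 1 or 4 of the irradiated group, the latter without replicate 2 of the irradiated group. Cox7a2l was 36.0, 27.8, 33.3 and 28.7 CPM on the adequate diet and 43.5, 37.8, 47.4 and 42.9 CPM after irradiation. In the supplemented groups it was 29.8, 27.8, 31.3 and 31.7 CPM and then 50.2, 49.6, 44.7 and 36.2 CPM. Every irradiated library was above every unirradiated one, and it rose by 0.47 and by 0.58 (SE 0.12, adjusted p = 0.0166 and 0.00380). The call on the adequate diet was lost without replicate 2 of the unirradiated group (adjusted p = 0.0609).

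Cox7a1 made up 33.6 to 42.3% of the summed TPM of Cox7a1 and Cox7a2 in the adequate unirradiated libraries and 19.7 to 34.5% after irradiation. With supplementation its share was 40.9 to 43.8% and then 25.8 to 35.8%. Markers of tissues known for Cox7a1 were read beside it. The 12 skeletal muscle markers summed to 36.0 to 133 CPM in the adequate unirradiated libraries and 9.13 to 16.8 CPM in the irradiated ones, with Myh2 and Pvalb at 0 in every group. With supplementation these sums were 18.3 to 67.8 CPM and 10.5 to 56.1 CPM. Only 4 of the 12 were tested, and they did not move together. On the adequate diet 3 were negative and 1 positive, with 1 called lower. On the supplemented diet 2 were negative and 2 positive, with none called. The 5 cardiac markers summed to 13 to 28 CPM over all libraries, the 7 smooth muscle markers to 437 to 1150 CPM, and the 7 brown fat and adipocyte markers to 2.30 to 34.4 CPM. None of these was called after irradiation. Of the 7 smooth muscle markers, 7 were positive on the adequate diet and 6 on the supplemented diet. Of 3 cardiac markers tested, 2 were positive and 1 negative on each diet. Of 2 brown fat and adipocyte markers tested, 1 was positive and 1 negative on each. The part of the skeletal muscle markers in the fall of Cox7a1 was not tested.

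Restricted isoforms of the other families were minor. Cox4i2, the oxygen-sensitive isoform, took 0 to 0.487% of the Cox4i1 and Cox4i2 TPM over all libraries, and gave log2 fold changes of -0.43 and -0.47 (SE 0.49 and 0.46, adjusted p = 0.607 and 0.546). Cox6b2, known from testis, took 0.823 to 3.62% of its pair and gave 0.19 and 0.49 (SE 0.41 and 0.38, adjusted p = 0.808 and 0.424). The 4 testis and sperm markers reached at most 0.293 CPM in sum.

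Complex V has a catalytic F1 head (Atp5a1, Atp5b, Atp5c1, Atp5d, Atp5e) and a membrane part whose rotating ring is made of 1 mature protein encoded by Atp5g1, Atp5g2 and Atp5g3. Of its 17 members, 6 were lower and 1 higher on the adequate diet, and 5 were lower and 0 higher on the supplemented diet (7 had an unadjusted p under 0.05). The medians were -0.28 and -0.27. Atp5k, which sits where ATP synthases pair, was 92.0, 80.8, 95.9 and 113 CPM on the adequate diet and 41.2, 53.5, 47.5 and 49.3 CPM after irradiation. It fell by 1.0 (SE 0.14, adjusted p = 0.000238) there and by 0.50 on the supplemented diet (SE 0.13, adjusted p = 0.0182), the latter lost in 3 alternatives (up to 0.0717), without replicate 3 of the unirradiated or 2 of the irradiated group among them.

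Atp5l, another subunit of that membrane region, was 90.1, 87.5, 95.9 and 101 CPM on the adequate diet and 57.8, 70.9, 65.0 and 57.2 CPM after irradiation. It fell by 0.58 and by 0.61 (SE 0.11, adjusted p = 0.00315 and 0.00171), and both calls held under every alternative. Within the F1 head, Atp5d and Atp5e, the delta and epsilon subunits of the central stalk, were lower on both diets. Atp5d fell by 0.56 and by 0.66 (SE 0.15) and Atp5e by 0.61 and by 0.46 (SE 0.13). Atp5d lost its call on the adequate diet in 3 alternatives (up to 0.0752, without replicate 1 of either group among them), and Atp5e in 1 there and in 5 on the supplemented diet (up to 0.0529 and 0.0920), the latter without replicate 1, 2 or 4 of the unirradiated or 2 or 3 of the irradiated group.

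The catalytic pair of the F1 head was not called. Atp5b was 1830, 1660, 1670 and 1580 CPM on the adequate diet and 1090, 1270, 1200 and 1280 CPM after irradiation, so the groups did not overlap. Its log2 fold changes were -0.48 and -0.42 (SE 0.16, adjusted p = 0.0607 and 0.0910 by edgeR). DESeq2 gave adjusted p = 0.00192 and 0.00655, and limma voom 0.0301 and 0.0432. Atp5a1 gave -0.28 and -0.32 (SE 0.16, adjusted p = 0.253 and 0.189), and without replicate 4 of the supplemented irradiated group the latter was -0.47 (adjusted p = 0.0160).

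The genes of the ring differed among themselves. Atp5g1 was 50.6, 47.9, 67.0 and 45.5 CPM on the adequate diet and 27.1, 24.1, 28.0 and 43.7 CPM after irradiation. The supplemented groups had 65.0, 54.4, 55.5 and 91.6 CPM and then 30.8, 24.8, 23.0 and 33.2 CPM. It fell by 0.76 and by 1.26 (SE 0.21, adjusted p = 0.0218 and 0.000823), the first of which was lost in 5 alternatives (up to 0.0954), without replicate 3 of the unirradiated or 1, 2 or 3 of the irradiated group among them, and the interaction was -0.50 (SE 0.29, adjusted p = 1.0).

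Atp5g2 was 15.7, 15.8, 20.8 and 14.7 CPM on the adequate diet and 29.2, 23.2, 28.1 and 19.0 CPM after irradiation, and rose by 0.57 (SE 0.17, adjusted p = 0.0354) with overlapping libraries, a call lost in 8 alternatives (up to 0.120), without replicate 1, 2 or 4 of the unirradiated or 1 or 3 of the irradiated group among them. On the supplemented diet it gave -0.13 (SE 0.17, adjusted p = 0.635), and the interaction was -0.70 (SE 0.24, adjusted p = 0.967). Atp5g3, the most abundant, gave -0.16 and -0.27 (SE 0.13, adjusted p = 0.462 and 0.185). Atp5g3 supplied 71.2 to 83.9% of the family's TPM over all libraries. Atp5g1 supplied 15.7 to 19.9% and 7.30 to 17.0% on the adequate diet before and after irradiation, and 16 to 23% and 8.39 to 10.7% on the supplemented diet.

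**Figure D3:**
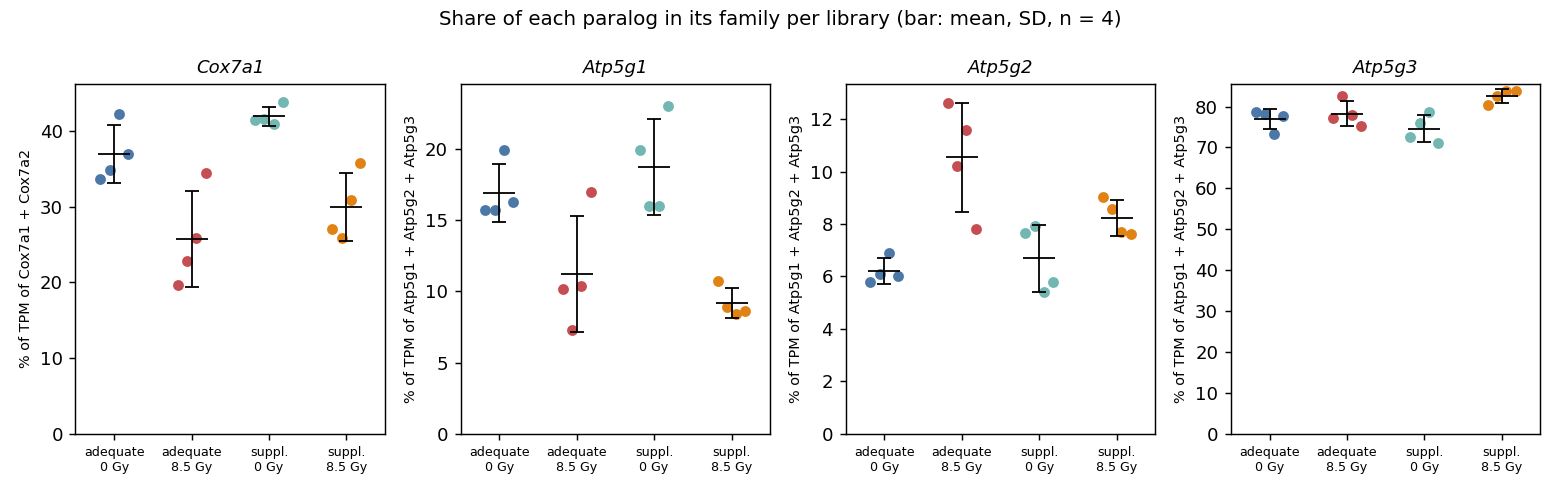
Share of Cox7a1 in the TPM of Cox7a1 and Cox7a2, and of each ring gene in the TPM of Atp5g1, Atp5g2 and Atp5g3, as percentages per library with the mean and SD of 4. The mean share of Cox7a1 is 36.9% and 25.7% on the adequate diet at 0 and 8.5 Gy, and 41.9% and 29.9% on the supplemented diet.

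The 4 copies annotated as pseudogenes share sequence with their parent genes, so the counting could split reads between them and their values are uncertain. Ndufb4c took 46.9 to 88.4% of the counts of Ndufb4 and Ndufb4c, and Cox6c2 took 6.50 to 34.9% of its pair. Ndufa11b took 2.26 to 24.4% of its pair and was lower on the adequate diet at -1.62 (SE 0.51, adjusted p = 0.0456), with overlapping libraries and a call lost in 11 alternatives (up to 0.168), among them those without any 1 unirradiated library of that diet. Ndufs6b was 0.314, 0.206, 0 and 0.489 CPM on the supplemented diet and 3.81, 3.16, 2.14 and 3.59 CPM after irradiation. It entered the test through the latter group alone, so its values are a description. In the adequate irradiated libraries it was 0.422, 0, 0.614 and 0 CPM. These levels rest on few counts, and Ndufs6b took at most 9.14% of the counts of its pair.

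Promoters of the members were compared with those of all genes, from RefSeq on GRCm38.p6, as the 250 bases before to 50 after the listed start. Of the 85 protein-coding members, 67 had an entry, as had 27025 genes in all. The latter were not limited to protein-coding genes or to genes tested here, so the 2 sets differ in more than function. Each motif was searched on both strands. The full site of nuclear respiratory factor 1, GCGCATGCG, was in 11.9% of the members' windows and 1.81% of all, and its looser form GCGCANGCG, which contains it, in 28.4% and 6.47%. The ETS core CCGGAAG, bound by the GA-binding protein, was in 22.4% and 9.12%. AAGATGGC, a site of YY1, was in 13.4% and 2.88%, and within the upstream 250 bases alone 0.0% of the members held it against 1.59% of all.

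GGGCGG, a site of SP1, was in 40.3% and 35.9%, TCAAGGTCA, a site of estrogen-related receptors, in 2.99% and 0.407%, and TATAAA in 10.4% and 14.2%. The median GC content of the windows was 57.3% for members and 52.7% for all genes. Of the 34 members called lower on either diet with an entry, 7 held GCGCATGCG and 12 held CCGGAAG. Of the 31 tested members with an entry that were not called lower, 1 and 3 did. In the same order of groups the counts were 13 and 6 for GCGCANGCG, 12 and 14 for GGGCGG and 5 and 4 for AAGATGGC. They were 1 and 1 for TCAAGGTCA and 4 and 1 for TATAAA. This split by call was not planned and was not tested. A match is a description of the letters and not a site shown to be bound.

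The 150 bases before the start are shown for Ndufa8 and Ndufb10, which fell on both diets and of which the first holds the nuclear respiratory factor 1 site, and for Cox7a1 and Cox7a2l, which moved in opposite directions. Capitals mark GCGCATGCG, GCGCANGCG or GGGCGG on either strand, and the sequences run 5′ to 3′ on the gene's strand. They lie at chr2:36049339-36049488 (minus strand), chr17:24724424-24724573 (minus strand), chr7:30184021-30184170 (plus strand) and chr17:83514334-83514483 (minus strand).
Ndufa8: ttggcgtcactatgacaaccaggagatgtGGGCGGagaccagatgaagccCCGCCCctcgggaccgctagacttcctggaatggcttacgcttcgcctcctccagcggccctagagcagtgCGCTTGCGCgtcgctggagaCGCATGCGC
Ndufb10: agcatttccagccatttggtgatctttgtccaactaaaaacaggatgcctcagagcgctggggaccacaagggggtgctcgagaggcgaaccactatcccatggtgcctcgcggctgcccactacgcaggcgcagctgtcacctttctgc
Cox7a1: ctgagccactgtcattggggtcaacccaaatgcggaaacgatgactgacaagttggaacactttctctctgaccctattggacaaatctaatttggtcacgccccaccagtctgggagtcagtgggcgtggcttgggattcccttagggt
Cox7a2l: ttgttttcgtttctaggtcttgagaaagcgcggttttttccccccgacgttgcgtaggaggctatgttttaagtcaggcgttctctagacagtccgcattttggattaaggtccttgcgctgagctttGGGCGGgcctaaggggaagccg
Ndufa8 carried the full site directly at the end of this stretch, a looser match before it and 2 SP1 matches farther upstream. Cox7a2l carried 1 SP1 match, and neither Ndufb10 nor Cox7a1 carried any of the motifs searched in this stretch.

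Genes that work with the members were read beside them. The 13 mitochondrially encoded mRNAs, which supply the core of complexes I, III, IV and V, went the other way: 12 were higher on the adequate diet and 11 on the supplemented diet, none was lower on either, and their medians were 1.23 and 1.08. mt-Nd6 rose by 1.67 and by 1.48, and mt-Co2 gave 0.34 and 0.56 with no call. The ratio of summed CPM of the 89 nuclear members to that of these mRNAs was 0.603 to 0.689 in the adequate unirradiated libraries and 0.234 to 0.332 in the irradiated ones. On the supplemented diet it was 0.675 to 0.873 and 0.255 to 0.457, so the groups did not overlap on either diet.

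**Figure D4:**
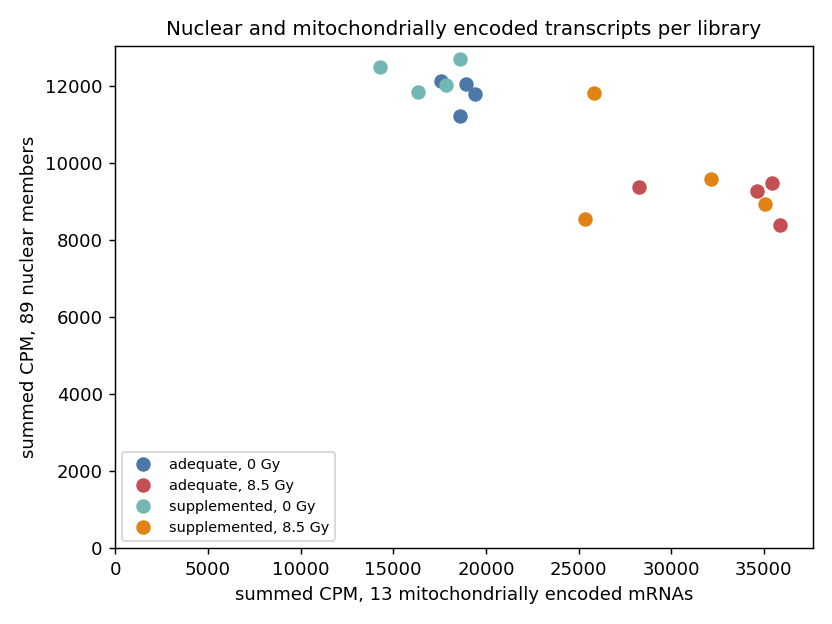
Summed CPM of the 89 nuclear members against summed CPM of the 13 mitochondrially encoded mRNAs, 1 point per library, by diet and dose. The 8 unirradiated libraries lie at 14298 to 19403 CPM on the mitochondrial axis and the 8 irradiated ones at 25360 to 35895 CPM.

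Assembly factors build the complexes without staying in them. Beside the lists here and in the next paragraph, 6.58% of all tested genes were lower and 7.13% higher on the adequate diet. On the supplemented diet these shares were 7.21% and 8.03%. Of the 19 complex IV assembly genes, 5 were lower on each diet and none was higher (10 and 8 had an unadjusted p under 0.05). Cox10, which makes heme O, fell by 0.71 and by 0.89, and Cox14, Coa3 and Coa5 were also lower on both diets. Of the 14 complex I assembly genes, 2 and 3 were lower, Timmdc1 and Ndufaf3 on both. None of the 4 complex II, 5 tested complex III or 3 complex V assembly genes was called on either diet, with 0, 3 and 0 at an unadjusted p under 0.05 without supplementation and 0, 1 and 0 with it. None of 4 subunits and partners outside the symbol rule, among them cytochrome c (Cycs), was called (3 and 1 at an unadjusted p under 0.05).

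Of the 17 tricarboxylic acid cycle genes, 0 and 1 were lower and 0 higher (4 and 6 at an unadjusted p under 0.05). Of the 18 genes of electron entry and ubiquinone, 5 and 3 were lower and 2 and 1 higher; Coq6 and Coq9, of ubiquinone synthesis, were lower on both diets. Among 20 genes of mitochondrial biogenesis and transcription, 3 and 2 were lower and none higher. Their medians were -0.11 and -0.06, and 8 and 9 of the 20 had a positive log2 fold change. The coactivator Ppargc1b fell on both diets, by 0.60 and by 0.62. Of 7 carrier and uncoupling genes tested, 1 was higher on the adequate diet, Slc25a4, and none was called on the supplemented diet (1 at an unadjusted p under 0.05). Of 77 mitochondrial ribosomal protein genes, 13 and 17 were lower and 1 and 0 higher, with a median of -0.20 on both diets. Of 90 cytosolic ribosomal protein genes, 1 was lower on each diet and 36 and 39 were higher, with medians of 0.55 and 0.56.

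The members are short transcripts, with a median of 658 bases, so genes of like length were set beside them. Of the 64 tested members under 1000 bases, 42.2% were lower on the adequate diet and 35.9% on the supplemented diet, and of the 20 members of 1000 bases or more, 40.0% on each. Among other nuclear protein-coding genes under 1000 bases, 8.20% and 9.25% were lower.

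The diet comparisons, which ask whether added methionine changed the members at a given dose, gave no call. Without irradiation 0 of 84 members were higher or lower on the supplemented diet, where 0.169% of all genes were higher and 0.0302% lower, and 8 members had an unadjusted p under 0.05. The median log2 fold change was 0.07, with 55 positive and 29 negative, and DESeq2 and limma voom also called 0. After irradiation 0 of 84 were called (background 0.0% in both directions) and 6 had an unadjusted p under 0.05, with a median of 0.08. There DESeq2 called 1 member, the pseudogene copy Ndufs6b, which was tested through the supplemented irradiated group alone, and limma voom called 0. The summed CPM of the members was 11800 ± 408 (SD, n = 4) on the adequate and 12270 ± 393 on the supplemented diet without irradiation, and 9133 ± 509 and 9724 ± 1470 after it.

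Among protein-coding members no difference by diet was called. The largest among those of complex I was 0.41 without irradiation and 0.53 after it. Cox5b was 133, 161, 135 and 120 CPM on the adequate and 180, 173, 177 and 171 CPM on the supplemented diet without irradiation, a log2 difference of 0.35 (SE 0.13, adjusted p = 0.284) with no overlap. Uqcrc2 was 192, 221, 203 and 212 CPM and 239, 259, 298 and 221 CPM, at 0.30 (SE 0.12, adjusted p = 0.352), and after irradiation it differed by 0.27 (SE 0.12, adjusted p = 0.937). These differences did not pass the test. Atp5g1 differed by 0.34 (SE 0.20, adjusted p = 0.544) and Sdhb by 0.17 (SE 0.15, adjusted p = 0.721) without irradiation. After irradiation Atp5g2 differed by -0.38 (SE 0.17, adjusted p = 0.927), Cox6b2 by 0.48 (SE 0.39, adjusted p = 0.965) and Sdhc by 0.16 (SE 0.14, adjusted p = 0.967).

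In the interaction, Uqcrq gave -0.19 (SE 0.17), Sdha 0.12 (SE 0.20) and the copy Cox6c2 0.61 (SE 0.49), each with an adjusted p of 1.0. Ndufa11b differed by -1.49 between diets without irradiation (SE 0.49, adjusted p = 0.233).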

How the data were processed

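RNA-seq of 16 jejunum libraries was used as deposited. The authors estimated counts per gene with RSEM 1.3.0 and Bowtie2 2.2.9 on build NCBIM37, per the submitters' processing notes, which also name edgeR 3.2.4. The deposited files give an expected count and a TPM per gene. TPM is relative to all genes, and short small nucleolar RNAs take up to 66.29% of it, so shares of nuclear protein-coding TPM were also computed. Symbols came from GENCODE M21 by Ensembl ID (32897 of 37620 matched). Members, lists, markers and motifs were chosen with earlier results of these data known.

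Expected counts were rounded to whole numbers and fitted in R 4.3.3 with edgeR 4.0.16 (filterByExpr, TMM, robust quasi-likelihood test, 16 libraries, 4 group means, Benjamini-Hochberg adjustment over all 16558 genes tested per comparison, threshold 0.05). DESeq2 1.42.0 and limma voom (limma 3.58.1), other scalings, no filter, a threshold of 0.01, fits without 3 libraries under 4 M counts and fits that leave out each library were alternatives. Scaling on nuclear protein-coding genes was added after seeing the data. The script was tested on simulated data. Counts of 2.57 to 15.51 M set the precision. Named with values were called members with the smallest p (up to 12 per comparison), catalytic and core members, restricted isoforms, and per complex the highest, the lowest and the farthest changed member. Ndufa3, Ndufc1 and others named beside them as called on both diets come from the call list. Promoter sequences are RefSeq's, GRCm38.p6; coordinates are of that build and not of the files' build. The values of 1 member are not reported here by themselves, and it is counted in the totals but not drawn.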

Additional observations from a re-analysis of the deposited data

Results flagged for a closer look

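Each of 41 members was checked in its 4 groups for a library far from the other 3 (Dixon's test at the 95% level). Of these 164 groups, 5 held such a library, where chance gives about 1 in 20 groups. Cox7a1 was 52.4 CPM in replicate 3 of the adequate unirradiated group, and 33.4 to 36.5 CPM in the others. Cox8a was 151 CPM in replicate 4 of the supplemented unirradiated group, and 115 to 120 CPM in the others. In that same library Uqcrfs1 was 273 CPM, against 233 to 238 CPM. Sdhc was 149 CPM in replicate 4 of the supplemented irradiated group, and 103 to 105 CPM in the others, which is the library with the highest enterocyte marker sum. The copy Ndufa11b was 3.38 CPM in replicate 3 of the adequate irradiated group, and 1.16 to 1.24 CPM in the others. The cause of these values was not tested.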

How the results depend on the processing

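The medians of the members and the counts called lower kept their direction under every alternative tried. Of the calls after irradiation on the adequate diet, 16 of 35 lower and 0 of 2 higher were kept in all 24 alternatives, and on the supplemented diet 14 of 31 lower and 2 of 2 higher, of which Ndufs6b passed the filter on low counts through the irradiated group alone. On the adequate diet the count of members called lower (35) was 22 with no filter, 20 without the libraries under 4 M counts and 16 at an adjusted p under 0.01, and 19 to 39 when each library was left out. The count called higher (2) was 1 with no filter, 1 without the small libraries, 1 with only the groups compared, 0 at an adjusted p under 0.01, and 0 to 2 when each library was left out. On the supplemented diet the count called lower (31) was 18 without the small libraries, 20 with only the groups compared, 14 at an adjusted p under 0.01, and 15 to 43 when each library was left out. DESeq2 called 1 member higher for diet after irradiation. The sum of deposited TPM over the members gave log2 ratios of -1.44 and -1.57 after irradiation, and -0.44 and -0.43 over nuclear protein-coding TPM. These scales differ in the denominator, all TPM or that of nuclear protein-coding genes alone. Small nucleolar RNAs took 31.96 to 50.69% of all TPM without irradiation and 50.54 to 66.29% with it. Their part in the gap was not tested. The interaction of Sdha (0.12) was -0.02 to 0.19 when each library was left out, negative without replicate 4 of the supplemented irradiated group alone, and the cause was not tested. The share of members with the YY1 letters (13.4%) was 0.0% in the upstream part alone. No paired analysis was possible because the labels give no replicate numbers, and those used here follow the order of deposit and only name libraries. Members with a mean under a few CPM, such as Cox4i2, Cox6b2 and Ndufs6b, are limited by depth.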
